A study of Mus musculus with 2 samples.

Results

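The 34 genes described here encode the signalling machinery of the T cell receptor, from its chains to the NFAT transcription factors. They were chosen by symbol: 7 receptor chains, 3 kinases, 5 adaptors, 6 genes of the second messenger and NF-kB arm, the phosphatase Ptprc, 8 brakes, 3 NFAT factors and the co-stimulatory receptor Cd28. All 34 were among the 33696 genes of the deposited matrices, and all 34 passed the minimum of 200 UMIs (unique molecular identifiers, counted transcript molecules) over both libraries, as did 10515 genes in all. They were read in splenic CD8 T cells of wild-type C57BL/6 mice, isolated with magnetic beads and profiled by droplet single-cell RNA sequencing of transcript 3' ends. One library came from mice given dehydroepiandrosterone (DHEA), an androgen precursor used to give mice a polycystic ovary-like state, at 40 mg/kg in 20 µL of sesame oil under the skin each day for 21 days. The other (CTRL) came from mice given the same volume of oil for as long. Neither the labels nor the files give the animals' sex and age or how many contributed to a library. With 1 library per group no test could be run, every interval below is an exact 95% interval for counting error only, and no difference between the libraries has a replicate check.

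A T cell detects peptide on MHC through a heterodimer of alpha and beta chains, which has no signalling tail of its own and is carried to the surface by the CD3 and zeta chains. Lck, held by the co-receptor CD8, phosphorylates the tails of those chains, ZAP-70 docks there and phosphorylates the adaptors LAT and SLP-76, and these assemble phospholipase C gamma 1 and its partners. The resulting calcium and diacylglycerol signals drive NFAT, Ras and, through PKC theta, BCL10 and MALT1, NF-kB. Kinases such as CSK, phosphatases, ubiquitin ligases and diacylglycerol kinases hold the pathway down.

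The beta chain constant region is encoded by a pair of neighbouring genes, Trbc1 and Trbc2, and a mature cell builds its receptor with one of them. Their coding exons are shown because their coding sequences differ at few bases. The untranslated part of the last exon, at the 3' end that these libraries read, was not compared. In GENCODE vM21 (GRCm38, chromosome 6, plus strand) exon 1 of Trbc1 (41538218 to 41538592) and exon 1 of Trbc2 (41546730 to 41547104) differed at 1 of 375 bases. Over the whole coding part of 518 bases they differed at 23, an identity of 95.6%. The third exon held 15 of those differences in 107 bases, Trbc1 at 41539229 to 41539335 and Trbc2 at 41547772 to 41547878. In the pair below, written 5' to 3', capitals mark the bases that differ.
Trbc1 exon 3: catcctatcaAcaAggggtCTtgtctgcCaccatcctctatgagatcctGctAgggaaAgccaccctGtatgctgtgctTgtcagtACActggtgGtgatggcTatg
Trbc2 exon 3: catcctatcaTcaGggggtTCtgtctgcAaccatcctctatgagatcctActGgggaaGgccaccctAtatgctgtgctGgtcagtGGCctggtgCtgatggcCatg

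The CD3 genes and Lck, the members whose levels are set side by side most often below, are shown by the 250 bases before their RefSeq starts (GRCm38.p6, not the mm39 build named for the counts). Cd3d (chromosome 9, 44981536 to 44981785, plus strand) and Cd3g (44980432 to 44980681, minus strand) point away from each other with starts 1355 bases apart. Cd3e lies on the minus strand of the same chromosome (45009612 to 45009861), and the Lck window shown, the first listed of 2, is on chromosome 4 (129573642 to 129573891, minus strand). Capitals mark each match, on either strand, to an ETS core (AGGAAG), a RUNX core (TGTGGT) or a TATA box (TATAAA).
Cd3d: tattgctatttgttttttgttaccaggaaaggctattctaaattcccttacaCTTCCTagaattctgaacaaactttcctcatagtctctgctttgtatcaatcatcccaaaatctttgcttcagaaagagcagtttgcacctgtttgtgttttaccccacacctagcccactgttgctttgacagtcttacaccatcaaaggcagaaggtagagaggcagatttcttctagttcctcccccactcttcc
Cd3e: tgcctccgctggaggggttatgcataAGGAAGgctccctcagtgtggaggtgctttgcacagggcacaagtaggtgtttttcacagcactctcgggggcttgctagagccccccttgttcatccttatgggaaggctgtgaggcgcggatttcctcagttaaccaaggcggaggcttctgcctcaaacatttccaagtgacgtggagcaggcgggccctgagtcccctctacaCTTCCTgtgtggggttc
Cd3g: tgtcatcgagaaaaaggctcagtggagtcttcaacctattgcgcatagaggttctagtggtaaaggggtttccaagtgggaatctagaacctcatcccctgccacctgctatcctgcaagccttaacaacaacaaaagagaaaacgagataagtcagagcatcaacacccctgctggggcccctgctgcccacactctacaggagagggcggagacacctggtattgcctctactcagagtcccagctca
Lck: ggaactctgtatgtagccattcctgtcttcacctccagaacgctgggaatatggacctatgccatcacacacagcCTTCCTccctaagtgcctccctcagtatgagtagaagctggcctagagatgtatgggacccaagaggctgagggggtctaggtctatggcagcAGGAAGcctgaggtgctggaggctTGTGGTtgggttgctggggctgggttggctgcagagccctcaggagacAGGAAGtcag
The ETS core was present once in the Cd3d window, at 2 places in that of Cd3e, at 3 in that of Lck and at none in that of Cd3g. Of the 34 genes, 27 had a RefSeq window, and 17 of these (63.0%) held the ETS core, against 7879 of 27025 genes (29.2%). The RUNX core was in 1 member window (3.70%, Lck) against 14.2% of all, and the TATA box in 2 (7.41%) against 12.97%. These are matches of letters and not shown binding sites.

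The matrices held 9495 CTRL and 12128 DHEA barcodes. Cells entered the analysis with at least 200 genes, under 10% mitochondrial UMIs, a UMI of Cd8a or Cd8b1 and a UMI of Cd3d, Cd3e or Cd3g. That left 8717 CTRL cells with 49239407 UMIs and 10699 DHEA cells with 50077687 UMIs. The CTRL cells were deeper, with a median of 5615 UMIs against 4483. The 2 libraries shared 51 barcodes, and 44 CTRL and 45 DHEA cells carrying one were kept. The summed level of CD4 T markers was 2.01 and 2.10 CPM (UMIs per 1000000), that of gamma delta T markers 20.3 and 21.5 CPM, and that of myeloid markers 66.6 and 77.8 CPM. NK markers, some of which memory CD8 T cells also carry, summed to 594.5 and 740.3 CPM, and to 1463 and 1892 CPM in effector-like cells; their part in the ratios below was not tested. B cell markers summed to 271 and 291 CPM. Because 3 of the members chose the cells, the detection of Cd3d, Cd3e and Cd3g is not a result; with a gate on Cd8a and Cd8b1 alone the ratio of Cd3g was 0.19 in place of 0.20 and that of every other member moved by no more than its counting interval.

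Over all gated cells, the ratio of the DHEA to the CTRL library was close to even in every member. The counting intervals of Malt1, Ubash3a, Dgka and Nfatc2 included equal levels. The log2 ratios of DHEA over CTRL ran from -0.30 (Plcg1) to 0.35 (Sh2d2a), 15 members were higher and 19 lower, and the median was -0.06, against -0.002 over all 10515 genes, of which 49.5% were higher. No member was 1.5-fold apart, where 1.81% of all genes were at least that much higher in DHEA and 1.44% lower. At 1.2-fold, 2 members were higher (Sh2d2a and Trac) and 1 lower (Plcg1), against 10.2% and 10.7% of all genes. Directions differed between roles: 6 of 7 receptor chains and 3 of 3 kinases were higher in DHEA, with medians of 0.09 and 0.08. All 6 of 6 genes of the second messenger and NF-kB arm were lower, with a median of -0.17. These roles also differ in gene length, and directions with gene length taken into account are given below. Adaptors were split with 2 higher and 3 lower, and brakes with 3 higher and 5 lower.

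**Figure D1:**
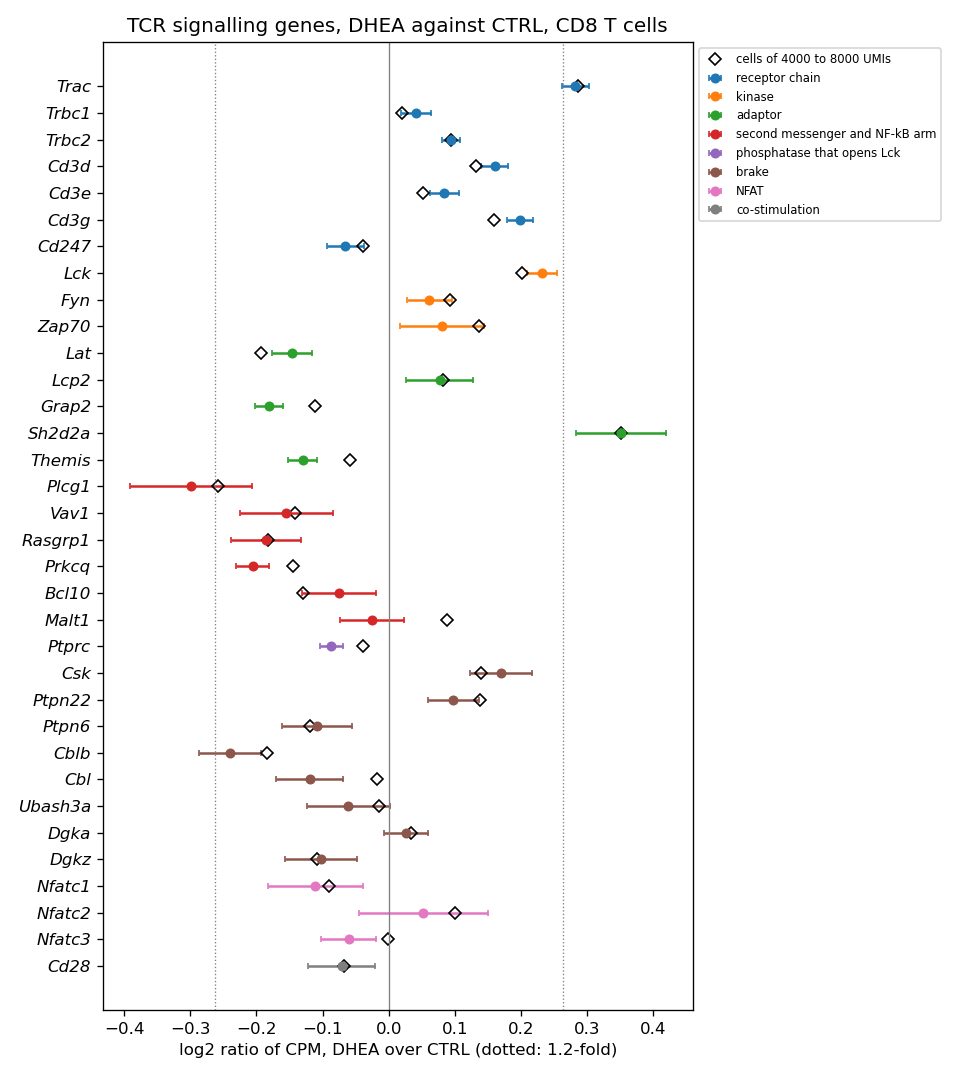
Log2 ratio of DHEA over CTRL for each of the 34 genes, coloured by role, with exact 95% intervals for counting error (filled points) and the same ratio in cells of 4000 to 8000 UMIs only (open diamonds). Receptor chains and kinases lie mostly right of 0 and the second messenger and NF-kB arm left of it, between -0.30 for Plcg1 and -0.03 for Malt1. Gene length is not taken into account in these ratios.

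Among the receptor chains the alpha constant gene stood furthest from even. Trac was at 698 CPM in CTRL (690.7 to 705) and 849 CPM in DHEA (841 to 857), a log2 ratio of 0.28 (0.26 to 0.30). Its value was higher in DHEA in 13 of 15 clusters of cells. With states or clusters combined in CTRL proportions the ratio was 0.25 and 0.24, both under 1.2-fold. The beta constant genes were closer to even, Trbc2 at 1633 and 1742 CPM (0.09, 0.08 to 0.11) and Trbc1 at 620.2 and 638 CPM (0.04, 0.02 to 0.06). The 3 CD3 chains, which pair as gamma-epsilon and delta-epsilon, were all higher in DHEA. Cd3g was at 784 and 899 CPM, a log2 ratio of 0.20 (0.18 to 0.22). Cd3d was at 722 and 806 CPM (0.16, 0.14 to 0.18), and Cd3e at 662 and 701 CPM (0.08, 0.06 to 0.11). Over all gated cells, the divergent neighbours Cd3g and Cd3d thus had the larger ratios and Cd3e the smaller. This order did not hold in every cluster: in cluster 6 Cd3e was at 0.45, Cd3g at 0.44 and Cd3d at 0.33. Cd247, which encodes the zeta chain with most of the receptor's phosphorylation motifs, was the only chain lower in DHEA. It was at 426 CPM in CTRL and 407 CPM in DHEA (-0.07, -0.09 to -0.04), higher in DHEA in 6 of 15 clusters. Cd247 is also the longest of the chain genes, at 88.6 kb. With the median ratio of genes of like span subtracted it was at 0.08, between Cd3g (0.13) and Cd3d (0.05).

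Lck, the kinase that starts the cascade, was at 569.6 CPM in CTRL and 669 CPM in DHEA. Its log2 ratio of 0.23 (0.21 to 0.25) had the same direction in 15 of 15 clusters. Among cells of 4000 to 8000 UMIs (5092 and 4979 cells, median depths 6024 and 5931), it was 0.20 (0.17 to 0.23). Zap70, which binds the phosphorylated zeta and CD3 tails, was at 77.5 and 82.0 CPM (0.08, 0.02 to 0.14). Fyn, the second Src kinase of T cells, was at 272 and 284 CPM (0.06, 0.03 to 0.10). With the states combined in the CTRL library's proportions, the value of Fyn was -0.05, on the other side of 0. It was 0.09 in cells of 4000 to 8000 UMIs and 0.21 with the median of genes of like span subtracted. The part of the mix of states in its small ratio was not tested.

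Of the adaptors, Sh2d2a had the largest ratio of all members. It encodes TSAd, an SH2 adaptor that binds Lck and is known for its appearance after T cell activation. Sh2d2a was at 62.9 CPM in CTRL (60.7 to 65.1) and 80.2 CPM in DHEA (77.7 to 82.7), a log2 ratio of 0.35 (0.28 to 0.42). It was higher in DHEA in 14 of 15 clusters, and the ratio was 0.27 with states and 0.25 with clusters combined in CTRL proportions, the last of which is under 1.2-fold. Lat, the membrane scaffold phosphorylated by ZAP-70, was lower in DHEA at 365 against 330.0 CPM (-0.15, -0.18 to -0.12). Grap2 encodes GADS, which links LAT to SLP-76. It was at 760 CPM in CTRL and 670.1 CPM in DHEA (-0.18, -0.20 to -0.16), and no cluster of 15 had the higher value in DHEA. The other adaptors, Lcp2 (SLP-76) and Themis, had ratios of 0.08 and -0.13.

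The second messenger and NF-kB arm was lower in DHEA throughout, by less than 1.2-fold in 5 of its 6 members. Plcg1, the phospholipase that makes the calcium and diacylglycerol signals, was at 42.4 CPM in CTRL (40.6 to 44.3) and 34.5 CPM in DHEA (32.9 to 36.1), a log2 ratio of -0.30 (-0.39 to -0.21). Cells of 4000 to 8000 UMIs gave -0.26 (-0.38 to -0.14), just under 1.2-fold. Prkcq, which encodes PKC theta, was at 562 and 487 CPM (-0.21, -0.23 to -0.18), lower in DHEA in all 15 clusters. Rasgrp1, the diacylglycerol-dependent activator of Ras, was at 123 and 108 CPM (-0.19, -0.24 to -0.13). Bcl10 (-0.08, -0.13 to -0.02) and Malt1 (-0.03, -0.07 to 0.02), partners in NF-kB activation, were close to even. For Malt1 the depth window gave 0.09 (0.02 to 0.15), on the other side of 0. So did subtraction of the median ratio of genes of like span, with 0.03.

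Ptprc encodes CD45, the phosphatase that keeps Lck ready by removing its inhibitory phosphate, and was at 1063 and 1001 CPM (-0.09, -0.10 to -0.07). The brakes showed no common direction. Cblb, a ubiquitin ligase that raises the threshold for activation, was lowest at 163 CPM in CTRL and 138 CPM in DHEA (-0.24, -0.29 to -0.19), and was lower in DHEA in 15 of 15 clusters. Cbl, its relative, was at 132 and 121 CPM (-0.12, -0.17 to -0.07). Csk, the kinase that places the inhibitory phosphate on Lck, was in contrast higher in DHEA at 141 against 159 CPM (0.17, 0.12 to 0.22), in 14 of 15 clusters. Ptpn22, a phosphatase that acts with CSK, was at 211 and 226 CPM (0.10, 0.06 to 0.14), while Ptpn6, which encodes SHP-1, was at 119.8 and 111 CPM (-0.11, -0.16 to -0.06). The diacylglycerol kinase gene Dgka was near even at 288 and 293 CPM (0.03, -0.01 to 0.06). Ubash3a and Dgkz had ratios of -0.06 and -0.10.

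The NFAT genes encode the calcium-dependent factors at the end of the pathway, and Cd28 the receptor that supplies the second signal. Nfatc1 was at 64.9 and 60.1 CPM (-0.11, -0.18 to -0.04), Nfatc2 at 33.8 and 35.05 CPM (0.05, -0.05 to 0.15) and Nfatc3 at 196 and 188 CPM (-0.06, -0.10 to -0.02). Cd28 was at 132 CPM in CTRL and 126 CPM in DHEA (-0.07, -0.12 to -0.02). Nfatc2 and Cd28 were both more abundant in memory-like cells, whose share differed between the libraries, and with states combined in CTRL proportions their ratios were -0.11 and -0.15.

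The library ratios moved with the length of the gene. Genes were put in 5 equal groups by genomic span, and the median log2 ratio over all genes went from 0.11 in the shortest group (up to 7.996 kb) through 0.07, 0.01 and -0.06 to -0.15 in the longest (from 64.5 kb). Of the members, 11 lay in the longest group and 9 in the next, among them Prkcq (129 kb), Cblb (177 kb) and Grap2 (80.3 kb), while Trac spans 3.69 kb and Sh2d2a 8.97 kb. Spearman's rho between ratio and span was -0.54 across the 34 members and -0.43 across 10268 genes. Both are descriptions over genes of the same pair of libraries. With the median of genes of like span subtracted, 20 members were higher and 14 lower, the median was 0.02, Sh2d2a was at 0.28, Lck at 0.22, Trac at 0.17, and Plcg1 and Lat were lowest at -0.24 and -0.26. Cblb was then at -0.09, Prkcq at -0.06 and Grap2 at -0.03, under 0.10 in size. All receptor chains but Cd247 lay in the shortest group or the next. All of the second messenger and NF-kB arm but Bcl10 lay in the longest group or the one before it. After the subtraction Trbc1 (-0.07) and Trbc2 (-0.02) were lower in DHEA and the other chains higher. Malt1 (0.03) was higher and the rest of its arm lower, and all kinases stayed higher. The part of span in the contrast between roles was not tested. Malat1, a nuclear transcript, was at 16792 CPM in CTRL and 12934 CPM in DHEA, and the mitochondrial share was 2.57% and 2.13%. The part of nuclear RNA or RNA quality in these ratios was not tested.

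**Figure D2:**
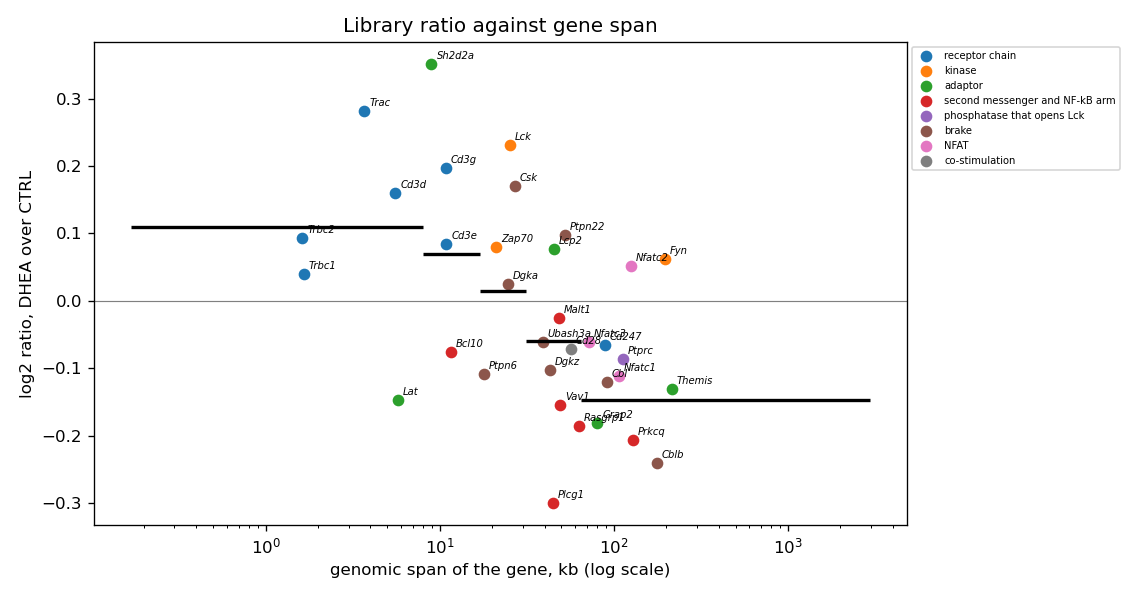
Log2 ratio of DHEA over CTRL against the genomic span of the gene in kb (log axis) for the 34 members, coloured by role, with black bars for the median of all genes in each of 5 span groups. The bars step down from 0.11 to -0.15, and Sh2d2a, Trac and Lck lie above the bar of their group while Plcg1 and Lat lie below.

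The cells fell into 15 clusters, made without the members and the other pathway genes and named from marker lists. Naive-like cells were 47.3% of CTRL and 41.2% of DHEA cells, memory-like cells 12.3% and 20.7%, and effector-like cells 2.16% and 4.12%. The naive-like name covers 3 clusters, of which 2 (0 and 1) held no naive marker among their 10 leading genes. Against all other cells, naive markers raised by about 1.2-fold or more numbered 1 of 10 in cluster 0. They numbered 9 of 10 in cluster 1 and 2 of 10 in cluster 2, and memory markers 0 of 11 in each. Naive markers had median log2 ratios of -0.06, 0.54 and -0.19, so in clusters 0 and 2 they do not bear out the name. The DHEA cells of the naive-like state were shallower (median 3071.5 UMIs against 5126). One of the memory-like clusters had as many innate-like as memory markers among its leading genes. Clusters of a library are not replicates, so a direction shared by them describes these cells only. Such counts of clusters were made for the listed genes only, so they have no share of all genes beside them.

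**Figure D3:**
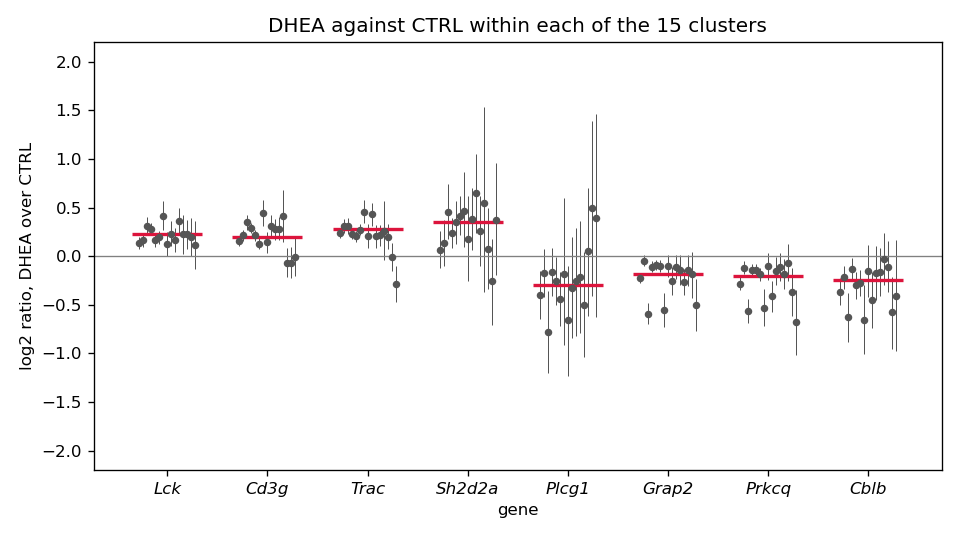
Log2 ratio of DHEA over CTRL in each cluster (grey points, exact 95% intervals for counting error, ordered by cluster number) and over all gated cells (red bars) for 8 members. Lck is above 0 in 15 of 15 clusters, and Grap2, Prkcq and Cblb, all in the group of longest genes, are below 0 in all 15. The share of all genes with such counts was not computed.

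Within naive-like cells the members had a median log2 ratio of -0.13, with 12 higher and 22 lower in DHEA, against -0.03 over the 8738 genes measured there, of which 55.4% were lower. At 1.2-fold, Trac was higher (613 and 747 CPM, 0.28) and 4 members were lower, against 9.32% and 16.9% of all genes. Those 4 were Plcg1 (42.7 and 32.4 CPM, -0.40), Cblb (148 and 115 CPM, -0.36), Prkcq (546 and 444 CPM, -0.30) and Themis (687 and 563 CPM, -0.29), the last named for this count after its value was seen. In naive-like cells of 4000 to 8000 UMIs the median was -0.11, and after thinning to 1000 UMIs it was -0.13. In the cluster with the most naive markers alone (median depths 5467 and 5013 UMIs), the median was -0.02 and Trac was at 0.31. The 4 lower genes were there between -0.12 (Prkcq) and -0.21 (Cblb), so none was then 1.2-fold lower. The reason for this change was not tested.

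Within memory-like cells the median was -0.03, against 0.01 over 7512 genes. At least 1.2-fold higher in DHEA were 4 members (against 12.7% of all genes) and 1 was lower (against 11.6%). Cd3g was at 650.0 and 816 CPM (0.33), Lck at 578 and 711 CPM (0.30), Sh2d2a at 83.2 and 101 CPM (0.28) and Trac at 773 and 940.3 CPM (0.28). Cbl was lower at 145 and 118 CPM (-0.29). The memory-like name pools clusters 3 and 6, and cluster 6 held 183 of 1068 CTRL cells but 803 of 2220 DHEA cells. In cluster 3 alone Cd3g was at 0.29 and Lck at 0.28, while Sh2d2a (0.24), Trac (0.22) and Cbl (-0.19) were under 1.2-fold. In cluster 6 the values were 0.44, 0.42, 0.47, 0.46 and -0.81 in that order. In the depth window Cd3g, Lck, Sh2d2a and Trac were at 0.30, 0.34, 0.45 and 0.30 in memory-like cells. Within effector-like cells, 7 of 32 measured members were at least 1.2-fold higher in DHEA and 8 lower, against 22.7% and 22.3% of genes; myeloid markers there summed to 94.2 CPM in CTRL and 353 CPM in DHEA, and their part in these ratios was not tested.

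States were drawn from these same cells, so their differences are a description, given as the log2 ratio in CTRL and then in DHEA. In memory-like over naive-like cells, 4 members were at least 1.5-fold higher in both libraries (against 4.02% of 8136 genes) and none was as much lower (against 2.43%). Nfatc2 had the largest ratio, 1.05 and 1.22. It was at 23.8 CPM in naive-like and 49.4 CPM in memory-like cells of CTRL, and at 20.4 and 47.6 CPM in DHEA. Malt1 followed with 0.85 and 0.96 (108 to 195 CPM in CTRL, 92.4 to 180.1 CPM in DHEA), then Sh2d2a with 0.65 and 0.74, and Ptpn22 with 0.59 and 0.60. Fyn (0.56 and 0.86), Ptpn6 (0.57 and 0.70) and Cd28 (0.53 and 0.73) passed that fold in DHEA only. Zap70 (0.42 and 0.37) and Trac (0.33 and 0.33) were higher by less.

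With effector-like cells added to the memory-like cells, 6 members were 1.5-fold above naive-like cells in both libraries (against 4.48%) and none below (against 2.16%). The additions were Fyn (0.66 and 0.95) and Cd28 (0.59 and 0.76).

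Members of the same roles went the other way. Bcl10, the partner of Malt1, was lower in memory-like than in naive-like cells (-0.54 and -0.38), as were Lat (-0.51 and -0.28), Cd247 (-0.36 and -0.45), Rasgrp1 (-0.30 and -0.41), Dgka (-0.32 and -0.29) and Cd3g (-0.35 and -0.24). Lck (0.10 and 0.23), Csk (0.12 and 0.10) and Nfatc3 (-0.07 and -0.08) were close to even. When cells were split by UMIs of memory and effector genes in place of clusters, Nfatc2 was at 0.51 and 0.54, Malt1 at 0.50 and 0.52, Sh2d2a at 0.51 and 0.64 and Ptpn22 at 0.40 and 0.34, and no member then passed 1.5-fold in both libraries.

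**Figure D4:**
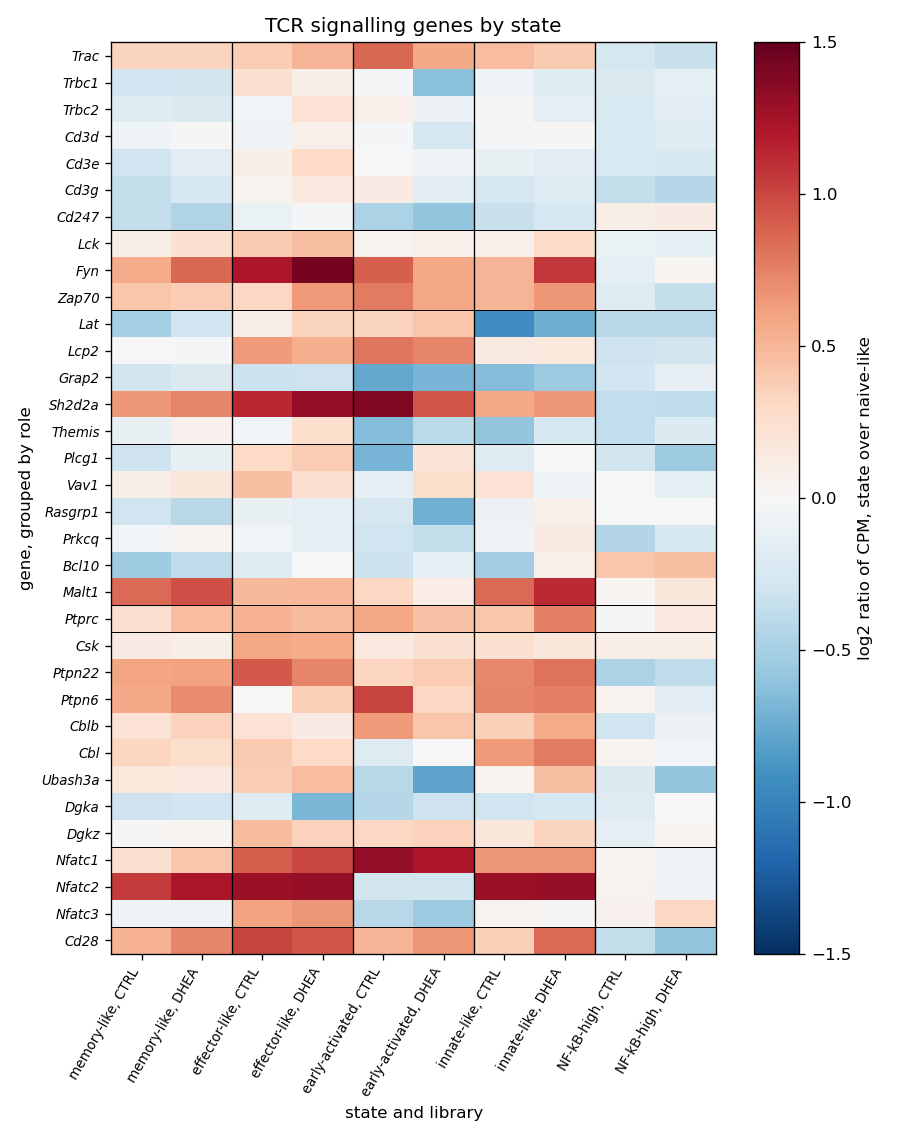
Log2 ratio of CPM of 5 states over naive-like cells, in the CTRL and the DHEA library (columns), for the 34 members grouped by role (rows); red is higher and blue lower than in naive-like cells. Nfatc2 has the highest ratio in memory-like and innate-like cells, Sh2d2a and Nfatc1 in early-activated cells, and Lat is lowest in innate-like cells.

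Effector-like cells, led by granzyme genes and Klrg1 and also by S100a8 and S100a9, had 7 members at least 1.5-fold above naive-like cells in both libraries (against 8.82% of 7226 genes), none as much below (against 2.56%) and 24 of 34 higher by any amount in both (against 55.6%). Their median was 0.34 in CTRL and 0.35 in DHEA, beside 0.18 and 0.18 over all genes. Fyn was at 225 CPM in naive-like and 522 CPM in effector-like cells of CTRL, and at 194 and 526 CPM in DHEA (1.22 and 1.44). Nfatc2 (1.30 and 1.31), Sh2d2a (1.13 and 1.31), Cd28 (1.02 and 0.93), Nfatc1 (0.91 and 1.00), Ptpn22 (0.93 and 0.73) and Nfatc3 (0.60 and 0.66) made up the count. Against memory-like cells, effector-like cells had 4 members 1.5-fold higher in both libraries (against 5.48%): Fyn (0.66 and 0.59), Lat (0.62 and 0.61), Nfatc1 (0.67 and 0.59) and Nfatc3 (0.67 and 0.74). Lat, lower in memory-like cells, was above its naive-like level in effector-like cells of DHEA, 436 against 346 CPM. In CTRL it was close to that level, 425 against 397 CPM, from 429 UMIs in 188 effector-like cells. Gamma delta T markers summed to 133 and 83.4 CPM in effector-like cells, above their level over all gated cells, and their part was not tested.

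Early-activated cells, led by Egr genes and Tnfrsf9, numbered 141 in CTRL and 114 in DHEA. Sh2d2a was at 139 and 116 CPM there, against 53.2 and 60.7 CPM in naive-like cells (1.39 and 0.94). Nfatc1, whose own promoter is a known NFAT target, was at 136 and 109.6 CPM against 54.5 and 47.1 CPM (1.32 and 1.22). Lcp2 was the third member past 1.5-fold in both libraries (0.80 and 0.74). Grap2, which binds its product, was the only one as much lower in both (-0.77 and -0.70). Those counts of 3 and 1 stand against 11.3% and 6.14% of all genes. Trac was above naive-like cells (0.86 and 0.57). Nfatc2 had only 18 and 10 UMIs here, and its difference from naive-like cells was not detectable at this depth (intervals -1.04 to 0.41 and -1.35 to 0.62). In cells of 4000 to 8000 UMIs the value of Grap2 in DHEA was -0.47, under 1.5-fold.

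Innate-like cells, led by Ikzf2 and Ly49 receptor genes, had 6 members 1.5-fold above naive-like cells in both libraries (against 5.27%) and 1 below (against 2.32%). Nfatc2 (1.29 and 1.31), Malt1 (0.85 and 1.12), Ptpn22 (0.72 and 0.82), Ptpn6 (0.73 and 0.76), Nfatc1 (0.65 and 0.66) and Cbl (0.64 and 0.78) were the higher ones. Lat was at 208 and 208 CPM against 397 and 346 CPM (-0.93 and -0.74), its lowest level among the named states. Gamma delta T markers summed to 206 and 171 CPM in innate-like cells, against 6.97 and 9.44 CPM in naive-like cells, and their part in these differences was not tested. Against memory-like cells no member was 1.5-fold apart in both libraries, where 1.68% of genes were higher and 0.537% lower. In NF-kB-high cells, named for Nfkbia and its relatives, no member was 1.5-fold apart from naive-like cells in both libraries (against 2.33% higher and 0.906% lower). Cd28, at 91.8 and 66.5 CPM against 118 and 100.3 CPM, was that much lower in DHEA only. By any amount, 21 of 34 members were lower in both libraries (against 34% of genes). Bcl10 was an exception at 159 and 154 CPM against 119.4 and 112 CPM (0.41 and 0.46).

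Cells led by Hdac9 and Myb, given no state name (162 in CTRL and 157 in DHEA), had 8 members at least 1.5-fold above naive-like cells in both libraries, against 4.51% of 7068 genes, and none below, against 2.29%. Both ubiquitin ligase genes were among them, Cblb at 264 and 245 CPM against 148 and 115 CPM (log2 ratios 0.84 in CTRL and 1.09 in DHEA) and Cbl (0.59 and 1.06). Fyn (0.82 and 1.11), Cd28 (0.77 and 1.25), Nfatc1 (0.80 and 1.23), Sh2d2a (0.91 and 0.80), Ptpn22 (0.74 and 0.76) and Dgkz (0.82 and 0.69) were the others. Trac (951 and 1093 CPM) and Trbc2 (2449 and 2468 CPM) had their highest values here among the states except for Trac in early-activated cells (1110.2 and 1108 CPM).

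Proliferating cells were few, 30 in CTRL and 70 in DHEA, and unlike in make-up. Erythroid markers summed to 649.9 and 431 CPM there, against 7.60 and 6.23 CPM over all gated cells, and effector markers to 549 CPM in CTRL and 8086 CPM in DHEA. The part of either in the values that follow was not tested. Sh2d2a was 1.5-fold above naive-like cells in both libraries (0.68 and 0.87), against 14.4% of genes, and 4 members were as much below (against 13.2%): Dgka (-0.97 and -1.61), Rasgrp1 (-0.96 and -1.56), Prkcq (-0.66 and -1.04) and Grap2 (-0.63 and -0.87).

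A cluster of low ribosomal share, 9.15% in CTRL and 13.5% in DHEA, with Malat1 at 46068 and 32891 CPM, held 147 and 295 cells. Against naive-like cells 20 members were 1.5-fold higher there in both libraries, against 40.0% of genes, and 7 lower in both, against 15.2%. The lower ones were Trac, Trbc1, Trbc2, Cd3d, Cd3e, Cd3g and Lat, with Trbc2 at 558 and 772 CPM in place of 1664 and 1811 CPM. Cd247 was higher (0.74 and 0.83), and Nfatc2 had the highest ratio (2.00 and 2.14).

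Usage of the beta chain constant genes was read per cell. At least 3 UMIs of Trbc1 and Trbc2 together were found in 94.2% of CTRL and 88.9% of DHEA cells, with a median of 11 and 10 such UMIs. Of these 8215 and 9508 cells, 48.5% (47.4 to 49.6) and 47.3% (46.3 to 48.3) had at least 90% of them from one gene, and 51.5% and 52.7% held a mixture. The one-gene cells were almost all Trbc2 cells, 95.9% (95.3 to 96.5) in CTRL and 95.6% (94.96 to 96.2) in DHEA. Cells with at least 90% from Trbc1 were 1.97% and 2.08% of those with 3 UMIs. The shares of one-gene cells were close in naive-like (48.0% and 46.8%), memory-like (48.2% and 47.1%) and effector-like cells (48.2% and 48.0%). No source used here says how reads that match both genes were counted, so the split into Trbc1 and Trbc2 is uncertain. Their untranslated 3' parts, at the end of the transcript that these libraries read, were not compared. Barcodes with no Cd3 or Cd8 UMI and at least 3 UMIs of B or myeloid markers numbered 5 in each library, too few for a background share: 0 and 2 of them had 3 Trbc UMIs.

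**Figure D5:**
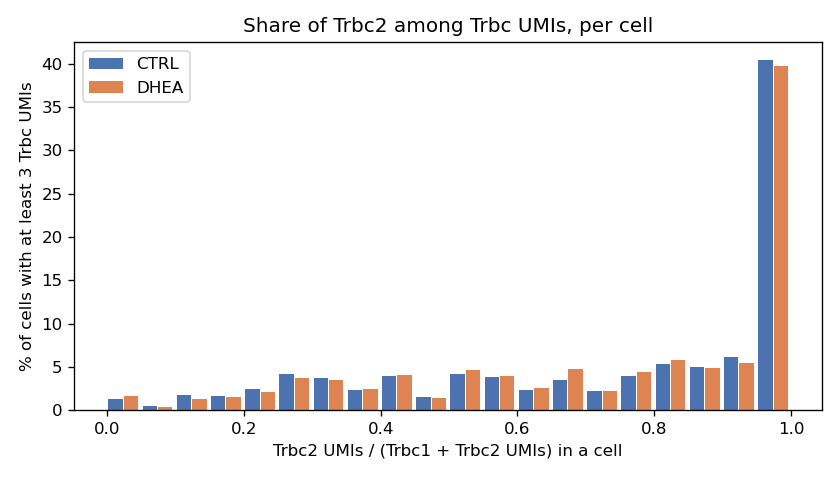
Share of Trbc2 among the Trbc1 and Trbc2 UMIs of a cell, for cells with at least 3 such UMIs, as the percentage of cells in bins of 0.05 in CTRL and DHEA. The highest bin holds most one-gene cells, the lowest bin few, and mixed cells spread between them in both libraries.

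A further 82 genes of the pathway were listed to set beside the members, and 80 of them were measured (Spry1 and Rnf128 had under 200 UMIs). Of the 80, 32 were higher and 48 lower in DHEA, with a median of -0.04. At 1.2-fold, 5 were higher and 5 lower, against 10.2% and 10.7% of all genes. None was 1.5-fold apart, against 1.81% of all genes higher and 1.44% lower. Highest was Lax1, a transmembrane adaptor that dampens receptor signals, at 66.8 CPM in DHEA, 1.48-fold its CTRL level (log2 ratio 0.57, 0.49 to 0.65). Sla, which encodes an adaptor that promotes receptor degradation, was at 49.9 and 67.7 CPM (0.44, 0.36 to 0.51). Tec, a tyrosine kinase, and Sh2d1a, the SAP adaptor of SLAM receptors, had ratios of 0.34 and 0.34. The other gene past 1.2-fold was Cd8b1 (1017 and 1266 CPM, 0.32), which the gate used.

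Lowest was Tnfaip3, which encodes the NF-kB inhibitor A20, at 122 CPM in CTRL and 96.5 CPM in DHEA (-0.33, -0.39 to -0.28), with no cluster of 15 higher in DHEA. The inositol trisphosphate receptor genes Itpr3 and Itpr2, which release calcium downstream of Plcg1, had ratios of -0.28 and -0.27, and Map3k7, the kinase TAK1 between MALT1 and NF-kB, -0.28. Nfkb1 was the fifth lower gene at -0.27, outside the naming rule and given for this count. With the median of genes of like span subtracted, Itpr3, Itpr2 and Nfkb1 were at -0.14, -0.13 and -0.12. Map3k7 was then at -0.22 and Tnfaip3 at -0.40.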

How the data were processed

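Values are raw UMI counts, produced by the authors using Cell Ranger 8.0.1 according to the deposited matrix headers. Seurat 4.3.0 and mm39 appear, with no stated role, in the submitters' processing notes, and no source states a filter on barcodes. Doublets were not removed: Scrublet called 3 cells in each library, too few to have worked. For clustering, log counts per 10000 of 2000 variable genes, centred and scaled per library, were reduced to 30 components, joined to 15 neighbours by shared-neighbour weights and split by the Leiden method (resolution 1.0) into 15 clusters (Python 3.11.15, scanpy 1.11.5, leidenalg 0.10.2). Left out of the clustering were the members, the other pathway genes, receptor segments and genes of immunoglobulins, haemoglobins, ribosomal proteins, mitochondria and the sex chromosomes (Xist, Y-linked). Clusters were named after their leading genes were seen, from 16 marker lists, and memory-like and effector-like cells together were called antigen-experienced.

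UMIs were summed per library and cell set and expressed as CPM. Genes needed 200 UMIs. Intervals (95%) are exact: binomial on the 2 libraries' counts for ratios, Poisson for CPM and Clopper-Pearson for shares. UMIs of 1 library are not independent samples of the condition, so intervals cover counting error only. Folds of 1.5 and 1.2 are rules of size, not tests. The ratio step was tested on simulated counts. These held counting error only, so the spread between animals or libraries was not part of that test. Genomic spans are from GENCODE vM21. Alternatives changed the gate, depth, scaling, doublets, clustering, state mix and span, with TMM factors from edgeR 4.0.16; the window of 4000 to 8000 UMIs, the combination over clusters and the use of cluster 1 or 3 alone were chosen after seeing the data.

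The members and lists were chosen with earlier results of these data known. Receptor chains were named in full, and in each other role up to 3 members with the largest library ratio and up to 3 with the largest antigen-experienced over naive-like ratio. Of the other pathway genes, the 4 highest and 4 lowest were named. Genes of small counts outside this rule were named after their values were seen.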

Additional observations from a re-analysis of the deposited data

Results flagged for a closer look

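Among states with at least 200 UMIs of a gene, the interval of the library ratio lay wholly on the other side of 0 from that in naive-like cells in 11 places. No share of all genes meeting this rule is given here, so 11 cannot be read as many or few. None of these differences was tested. Fyn had a log2 ratio of DHEA over CTRL of -0.22 in naive-like cells, 0.08 (0.0787) in memory-like cells, 0.33 (0.3335) in innate-like cells and 0.48 (0.4781) in proliferating cells. In the naive-like cluster with the most naive markers Fyn was at -0.06. Bcl10 was at 0.51 (0.5142) in innate-like cells and -0.09 in naive-like cells. Ptprc was at -0.25 in naive-like cells, 0.10 (0.0986) in innate-like cells and 0.15 (0.1543) in the cells led by Hdac9. Trbc1 was at -0.53 (-0.531) in early-activated cells, which number 141 and 114, and 0.07 in naive-like cells. Dgkz was at 0.32 (0.3187) in interferon-responding cells and -0.16 in naive-like cells.

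The others were in proliferating cells, which number 30 and 70. Trac was at -0.29 (-0.2858) there and 0.28 in naive-like cells, Trbc2 at -0.28 (-0.2753) and 0.12, and Lat at 0.36 (0.3607) and -0.19. Effector markers in proliferating cells summed to 549 CPM in CTRL and 8086 CPM in DHEA, and their part was not tested.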

How the results depend on the processing

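No ratio past a rule of size changed sign under any alternative run. Of the 2169 values of single members, 1618 stayed within their main interval and 551 moved beyond it in size. The median over the members went from -0.06 to 0.022 after subtraction of the span median and to -0.0080 in cells of 4000 to 8000 UMIs. For the other pathway genes it went from -0.04 to 0.037 with the span subtracted.

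The members at least 1.2-fold higher numbered 1 with states combined in CTRL proportions, 0 with clusters so combined and 1 with the span subtracted. Those 1.2-fold lower numbered 0 after thinning to 1000 UMIs, 4 by the mean over cells, 2 with states combined, 3 without unnamed clusters, 0 with the span subtracted and 0 in the depth window. For the other pathway genes, 11 were higher and 14 lower after thinning, 9 and 12 by the mean over cells, and 8 and 1 with TMM factors, which shifted all genes by 0.02. Those lower numbered 3 without the gate, 9 without unnamed clusters, 1 with the span subtracted and 2 in the depth window.

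In naive-like cells the median over the members was -0.13, and -0.029 with UMI gates in place of clusters and -0.019 in cluster 1 alone. It was -0.11 in the depth window and -0.13 after thinning to 1000 UMIs. The memory-like over naive-like median was 0.18 in CTRL and 0.18 in DHEA in the depth window, 0.19 in DHEA for cluster 3 alone and -0.018 in DHEA with UMI gates. The members 1.5-fold higher in memory-like cells in both libraries numbered 2 at resolution 0.5, 2 at 1.5, 2 without centring per library and 0 with UMI gates, and 1 was as much lower with naive-like cluster 1 alone.

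One-gene cells made up 46.7% of CTRL and 45.2% of DHEA cells from 5 Trbc UMIs, 45.1% and 44.0% from 10, 62.9% and 61.4% at a share of 80%, and 40.2% and 40.1% where all UMIs came from one gene. Trbc2 held 96.6% of one-gene CTRL cells from 10 UMIs, 90.3% at 80% and 96.9% at all UMIs, and in DHEA 96.7% from 5, 97.1% from 10 and 91.0% at 80%. The cause of these shifts was not tested. No paired analysis was possible because each group has 1 library. Leaving out a replicate was not possible for the same reason. Depth limits the states of few cells: 21 of 34 members were measured in early-activated cells.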
